A study of Homo sapiens with 14 samples.

Results

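The middle phase of the A549 proliferation screen was described, that is, the change in abundance of each sgRNA between day 10 and day 20 of culture. Every sgRNA of the library was used. There were 78 sgRNAs with the name of a gene (AAVS1 and the puromycin resistance gene included), 1000 non-targeting sgRNAs and 7999 sgRNAs with the ID of an m6A site. The log2-fold change (LFC) of an sgRNA was log2 of its normalized count on day 20 plus 1 over that on day 10 plus 1, taken within each replicate number, and the mean LFC was the mean over replicates 1 and 2.

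A549 is a human lung carcinoma cell line. The cells of every library expressed FNLS-BE3, a cytosine base editor, after transduction with pLenti-FNLS-P2A-Puro and puromycin selection, and then received the sgRNA library by lentivirus at a low multiplicity of infection, followed by blasticidin selection. The groups compared were day 10 and day 20 of continued culture with 2 libraries each, and no arm without the editor or without selection was among them. As a model, the groups were thus limited to 1 cell line in which editing had been possible since before day 0. Cells were identified only by their label here, since sgRNA counts hold no marker genes.

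A cytosine base editor joins a nicking Cas9 to a deaminase and turns C into T in a short window of the site that the sgRNA matches. An sgRNA placed so that the change turns a codon for glutamine, arginine or tryptophan into a stop codon truncates the protein, and cells that need that protein divide less and lose their share of the pool. The sgRNAs of the named genes were designed in this way, whereas non-targeting sgRNAs match no site in the genome and measure drift. The sgRNAs of m6A sites were designed for an adenine base editor and served here as a large group beside the controls. Sequencing the sgRNA cassette of the pool therefore gives relative abundance only, and a fall of 1 sgRNA means that its share became smaller than that of the rest of the pool.

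The 4 libraries held between 14925937 and 16457222 reads by the step size of their values, and their median normalized count lay between 1612 and 1622. The non-targeting sgRNAs took 11.8% to 12.0% of the total of each library and the m6A sgRNAs 87.1% to 87.3%. The sgRNAs with a gene name took 0.914% and 0.889% on day 10 and 0.918% and 0.882% on day 20. Their joint share in the pool thus overlapped between the days. Libraries of the same day differed by far more than read counting, with a chi-square of 23.8 per sgRNA on day 10 and of 35.4 on day 20.

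Between day 10 and day 20 the pool changed little. The LFCs of all sgRNAs had a median of 0.00 and an SD of 0.145, and no sgRNA passed an adjusted p of 0.05 in either direction with limma (0 sgRNAs, 0.0% in each direction, smallest adjusted p = 0.9998). At an unadjusted p under 0.05 limma gave 9 sgRNAs lower (0.0992%) and 4 higher (0.0441%) on day 20. All 9 were m6A sgRNAs, and the 4 comprised 3 m6A sgRNAs and 1 sgRNA with a gene name that is not reported by name. The limits of this test were wide, since the median 95% interval reached 0.49 to either side of an LFC for the sgRNAs with a gene name, 0.47 for non-targeting and 0.49 for m6A sgRNAs. That fit leaves out the replicate number, although the differences between replicates 1 and 2 correlated at 0.570 between the days across sgRNAs and the LFCs had an SD of 0.197 within a number against 0.291 with the numbers crossed. With a replicate block on only the 4 libraries of days 10 and 20, chosen after seeing the data, limma called 5 sgRNAs lower (0.0551%) and 1 higher (0.011%), with 313 (3.45%) and 309 (3.4%) at an unadjusted p under 0.05. The 5 were m6A sgRNAs whose LFC in 1 of the replicates was within 0.3 of 0, and the 1 carried a gene name that is not reported.

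By size, 3 sgRNAs (0.0331% of all) had a mean LFC below −1 and none had one above 1 (0.0%). The former count was 1 without day 10 replicate 1 and 6 without day 10 replicate 2 or without day 20 replicate 2, and the latter was 1 when either of the day 10 libraries was left out. Here and below, when a library was left out, the other library of its day stood for both replicate numbers. The 3 were *MYC*-3 and the m6A sgRNAs 2bc21704.1_GAC_2.8 and 2bc21697_GAC_2.4. With a limit of 0.5 in size, 19 sgRNAs (0.209%) lay below it, namely 2 with a gene name, 1 non-targeting and 16 m6A sgRNAs. Above it lay 3 sgRNAs (0.0331%), all of them m6A sgRNAs. More of the larger changes were downward than upward. The sgRNA just past the limit of −1 had a mean LFC of −1.04 and the next in order one of −0.94.

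A limit from the controls was set at the 1st and 99th percentiles of the non-targeting sgRNAs, which were −0.40 and 0.45 in replicate 1 and −0.51 and 0.42 in replicate 2. Below the lower limit in both replicates were 9 sgRNAs (0.0992%), and above the upper limit in both were 4 (0.0441%). Of the 9, *MYC*-3 was the sgRNA with a gene name, NT-113 the non-targeting sgRNA and 7 were m6A sgRNAs. Of the 4, 1 carried a gene name and is not reported by name, and 3 were m6A sgRNAs. With a gene name, 2 were below the limit without day 10 replicate 2 or without day 20 replicate 1, and 0 were above it when any of the 4 libraries was left out. As shares of each class, 1.28% of the sgRNAs with a gene name (1 of 78, exact 95% binomial interval 0.0325% to 6.94%), 0.1% of the non-targeting (1 of 1000, 0.00253% to 0.556%) and 0.0875% of the m6A sgRNAs (7 of 7999, 0.0352% to 0.180%) were below the limit in both. These intervals overlap, cover counting error only, and treat sgRNAs as separate although those of 1 gene share a target.

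*MYC* encodes a transcription factor that drives growth and division, lies on chromosome 8 from 128747680 to 128755197 on GRCh37, and had 4 sgRNAs. In days 10 to 20, *MYC*-3 had the lowest mean LFC of all sgRNAs and *MYC*-2 the 7th lowest. No non-targeting sgRNA lay below either of them. *MYC*-1 was low in 1 replicate, and *MYC*-4 stayed at the middle of the pool.

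The normalized counts of *MYC*-3 were 375 and 541 on day 10 and 143 and 213 on day 20, in replicates 1 and 2. Both day 20 values lay under both day 10 values, and the sgRNA kept 38.4% and 39.4% of its day 10 level. Its LFC was −1.38 and −1.34, with a mean of −1.36 ± 0.03 (SD, n = 2 replicates), so the replicates differed by far less than the change itself. In limma, which pools the spread over all days, the same change had a 95% interval of −3.21 to 0.49 and an adjusted p of 0.9998 (unadjusted 0.129). That spread includes day 30, where its normalized counts were 9.57 and 55.4.

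*MYC*-2 had normalized counts of 507 and 397 on day 10 and of 280.0 and 279.5 on day 20. The day 20 values were almost equal and both were under the day 10 values. The LFC was −0.85 and −0.50, with a mean of −0.68 ± 0.25 (SD, n = 2 replicates), and in replicate 2 it lay just inside the non-targeting limit of −0.51. The limma adjusted p was 0.9998 (unadjusted 0.598).

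The normalized counts of *MYC*-1 were 648.0 and 432 on day 10 and 625 and 260.1 on day 20. The groups overlapped, because replicate 1 of day 20 was above replicate 2 of day 10. The LFC was −0.05 and −0.73, a mean of −0.39 ± 0.48 (SD, n = 2 replicates), so the low value stood in replicate 2 alone. Without day 20 replicate 2, with day 20 replicate 1 set against both day 10 libraries, the LFC was 0.24. In limma its adjusted p was 0.9998 (unadjusted 0.506).

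*MYC*-4 had normalized counts of 1394 and 1425 on day 10 and of 1258 and 1575 on day 20, with the day 10 values between those of day 20. Its LFC was −0.15 and 0.14 and the mean −0.0015 ± 0.21 (SD, n = 2 replicates), with 482 of 1000 non-targeting sgRNAs lower. The 4 sgRNAs of *MYC* thus spanned from the lowest place in the pool to its middle. Their median LFC was −0.54, against 0.00 for all sgRNAs.

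Set beside the other phases of the screen, the median LFC of the *MYC* sgRNAs was −1.70 in days 0 to 10, −0.54 in days 10 to 20 and −1.46 in days 20 to 30. These phases share libraries, as the day 10 libraries end the early phase and the day 20 libraries start the late one, so high values in a day 10 library lower 1 LFC and raise the other. *MYC*-3 had LFCs of −2.72 and −2.20 in days 0 to 10 and of −3.77 and −1.92 in days 20 to 30. For *MYC*-3 the change in days 10 to 20 was 1.10 less negative than in days 0 to 10 on the log2 scale (limma, unadjusted p = 0.486, adjusted p = 0.99998), and the LFC of days 20 to 30 minus that of days 10 to 20 was −1.48 (unadjusted p = 0.318, adjusted p = 0.9999). *MYC*-2 had early LFCs of −1.55 and −1.90, and late ones of −4.73 and −0.03 that differed strongly between the replicates. *MYC*-1 had −1.39 and −1.97 early and −0.52 and −0.56 late. *MYC*-4 had −0.38 and −0.35 early and −0.27 and 0.89 late. In replicate 1 the late LFC was below that of days 10 to 20 for every *MYC* sgRNA. In replicate 2 this was so for *MYC*-3 only. There *MYC*-1, *MYC*-2 and *MYC*-4 had −0.73, −0.50 and 0.14 in days 10 to 20, each below its late LFC. On day 30 *MYC*-2 and *MYC*-3 both stood at 9.57 in replicate 1, the lowest value of that library. *MYC*-1, *MYC*-2 and *MYC*-3 were below the non-targeting 1st percentiles of days 0 to 10 (−0.57 and −0.60) in both replicates, and *MYC*-4 was not. Both early LFCs of an sgRNA use the same day 0 library. The change of *MYC*-3 in days 10 to 20 was not separated from those of the other phases by the test. That test leaves out the replicate number and pools the spread over all days, so it does not show that the phases were alike.

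CDK9 is the kinase of the elongation factor P-TEFb, which releases paused RNA polymerase II, and CDK8 belongs to the kinase module of the Mediator complex. All 4 sgRNAs of *CDK9* (chromosome 9, 130547958 to 130553071 on GRCh37) had a negative LFC in both replicates, against 25.6% of all sgRNAs. *CDK9*-4 led them with normalized counts of 1120.0 and 992 on day 10 and of 834 and 737 on day 20. Both day 20 values lay under both day 10 values, at 74.5% and 74.3% of them. The LFC was −0.42 and −0.43, a mean of −0.43 ± 0.00 (SD, n = 2 replicates), and 2 of 1000 non-targeting sgRNAs were lower. It lay outside the non-targeting limit in replicate 1 and inside it in replicate 2, and its limma adjusted p was 0.9998 (unadjusted 0.108).

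The other sgRNAs of *CDK9* had smaller values of the same sign. *CDK9*-2 had LFCs of −0.29 and −0.22, *CDK9*-3 of −0.07 and −0.21 and *CDK9*-1 of −0.06 and −0.05, and the median of the gene was −0.20. In *CDK8* (chromosome 13, 26828241 to 26995119) 2 of 4 sgRNAs were negative in both replicates and none was positive in both, with a median of −0.08 and a range from −0.21 for *CDK8*-3 to 0.03 for *CDK8*-1. *CDK8*-1 had LFCs of 0.38 and −0.32, so its mean near 0 hid replicates that went opposite ways. Over both kinases 6 of 8 sgRNAs were negative in both replicates, and in 3 of 8 both day 20 values lay under both day 10 values, as in 11.5% of all sgRNAs.

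CDK2 and CDK6 drive passage through the cell cycle, with CDK6 acting on the RB protein in G1, and CDK5 is a kinase best known from neurons. Of their 12 sgRNAs 4 were negative in both replicates, 2 were positive in both (26.5% of all sgRNAs) and 6 changed sign between the replicates. *CDK6* (chromosome 7, 92234235 to 92465887) had the lowest median of the 3 genes at −0.20, *CDK2* (chromosome 12, 56360565 to 56366573) had −0.03 and *CDK5* (chromosome 7, 150750902 to 150754984) −0.0015. The median of *CDK6* was −0.30 in replicate 1 and −0.03 in replicate 2. The values of *CDK2* ran from −0.15 for *CDK2*-1 to −0.01 for *CDK2*-2, those of *CDK6* from −0.31 for *CDK6*-4 to 0.13 for *CDK6*-3 and those of *CDK5* from −0.05 for *CDK5*-2 to 0.25 for *CDK5*-1.

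The normalized counts of *CDK6*-4 were 1544 and 1379.97 on day 10 and 1276 and 1082 on day 20. The days did not overlap, the LFC was −0.28 and −0.35 with a mean of −0.31 ± 0.05 (SD, n = 2 replicates), and 11 of 1000 non-targeting sgRNAs were lower (limma adjusted p = 0.9998, unadjusted 0.163). *CDK6*-1 was lower in both replicates too, with −0.33 and −0.16, but *CDK6*-2 had −0.60 in replicate 1 and 0.30 in replicate 2. *CDK5*-1 had normalized counts of 802 and 1128 on day 10 and of 967 and 1321 on day 20. The days overlapped although the LFC was close between the replicates, at 0.27 and 0.23 with a mean of 0.25 ± 0.03 (SD, n = 2 replicates).

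MYB is a transcription factor of blood progenitors and some tumours. *MYB* (chromosome 6, 135502446 to 135540311) had a median of −0.13 over 5 sgRNAs, from −0.31 for *MYB*-5 to 0.18 for *MYB*-4. Of the 5, 2 were negative and 1 positive in both replicates, against 25.6% and 26.5% of all sgRNAs. The median of *MYB* was 0.04 in replicate 1 and −0.19 in replicate 2. *MYB*-5 had normalized counts of 1339 and 1283 on day 10 and of 1304 and 861 on day 20. Only replicate 2 of day 20 stood apart, and the LFC was −0.04 and −0.58 with a mean of −0.31 ± 0.38 (SD, n = 2 replicates).

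EGFR is a receptor tyrosine kinase, BRAF a kinase of the MAPK cascade and AKT1 a kinase downstream of PI3K. Of their 13 sgRNAs 4 were negative in both replicates (25.6% of all sgRNAs), 3 positive in both (26.5% of all) and 6 of opposite sign, and their median of 0.00 was that of the pool. *EGFR* (chromosome 7, 55086710 to 55279321) had a median of mean LFCs of 0.07 and ran from −0.18 for *EGFR*-2 to 0.17 for *EGFR*-1. Its medians within replicates were both negative, at −0.09 in replicate 1 and −0.15 in replicate 2. *BRAF* (chromosome 7, 140419127 to 140624729) had a median of 0.00 and ran from −0.10 for *BRAF*-2 to 0.16 for *BRAF*-1. *AKT1* (chromosome 14, 105235686 to 105262088) had a median of 0.09, with −0.03 in replicate 1 and 0.13 in replicate 2, and ran from −0.19 for *AKT1*-2 to 0.17 for *AKT1*-4. All of these values lay between the 5th and 95th percentiles of the non-targeting sgRNAs, −0.23 and 0.20. The normalized counts of *AKT1*-4 were 1410.2 and 1634 on day 10 and 1630.4 and 1789.9 on day 20, with LFCs of 0.21 and 0.13, and replicate 1 of day 20 was just under replicate 2 of day 10.

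BRCA1 and BRCA2 repair DNA double-strand breaks by homologous recombination. *BRCA1* (chromosome 17, 41196312 to 41322262) had the highest median of mean LFCs of the genes reported here at 0.14 over 5 sgRNAs, with 0.14 in replicate 1 and −0.0026 in replicate 2, where *AKT1* was higher at 0.13, and *BRCA2* (chromosome 13, 32889223 to 32974405) had a median of 0.01 over 5. *BRCA1*-3 was the highest sgRNA of the genes reported here, with normalized counts of 2245 and 2377 on day 10 and of 2695 and 3053 on day 20. The days did not overlap, and its LFC was 0.26 and 0.36 with a mean of 0.31 ± 0.07 (SD, n = 2 replicates). Of the non-targeting sgRNAs 10 of 1000 were higher, and the limma adjusted p was 0.9998 (unadjusted 0.132).

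The other sgRNAs of these genes had smaller LFCs or LFCs of the opposite sign. *BRCA1*-5 had normalized counts of 1347 and 1799 on day 10 and of 1436 and 2145 on day 20, which overlapped, and LFCs of 0.09 and 0.25. *BRCA1*-2 was negative in both replicates at −0.17 and −0.16. The sgRNAs of *BRCA2* ran from −0.05 for *BRCA2*-2 to 0.11 for *BRCA2*-3, and 4 of 5 had opposite signs in the replicates. Over both genes 2 of 10 were negative and 2 of 10 positive in both replicates, against 25.6% and 26.5% of all sgRNAs.

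BAP1 is a deubiquitinase of histone H2A and a tumour suppressor. *BAP1* (chromosome 3, 52435024 to 52444024) had a median of −0.12 over 5 sgRNAs, from −0.28 for *BAP1*-3 to 0.06 for *BAP1*-4. Of the 5, 2 were negative and 1 positive in both replicates, against 25.6% and 26.5% of all sgRNAs. *BAP1*-3 had normalized counts of 1144 and 943 on day 10 and of 1055 and 698 on day 20. The days overlapped, and the LFC was −0.12 and −0.43 with a mean of −0.28 ± 0.22 (SD, n = 2 replicates). Without day 20 replicate 2, with day 20 replicate 1 set against both day 10 libraries, the LFC was 0.02. *TGFB1* (chromosome 19, 41807492 to 41859827), which encodes a secreted growth inhibitor of epithelial cells, had a median of 0.03 over 4 sgRNAs, from −0.04 for *TGFB1*-2 to 0.10 for *TGFB1*-4.

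The 7 control sgRNAs that match a site had a median LFC of −0.13, below the 0.00 of the non-targeting sgRNAs. AAVS1 is a safe-harbor locus at which changes are not known to affect growth, and all 3 of its sgRNAs were negative in both replicates, against 24.9% of the non-targeting sgRNAs. AAVS1_3 had normalized counts of 2825 and 2319 on day 10 and of 2577 and 1934 on day 20, AAVS1_1 had 1769.9 and 1590.01 and then 1566 and 1431, and AAVS1_2 had 751 and 908 and then 684 and 838. Only AAVS1_1 did not overlap between the days. The mean LFCs were −0.20 ± 0.09, −0.16 ± 0.02 and −0.13 ± 0.01 (SD, n = 2 replicates), and 73, 106 and 165 of 1000 non-targeting sgRNAs were lower than these. None had an unadjusted limma p under 0.05.

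The median of the AAVS1 sgRNAs, −0.16, was close to the −0.20 of *CDK9* and *CDK6* and below the −0.12 of *BAP1*. Of these 3 genes, *CDK9*-4, *CDK6*-4, *BAP1*-3, *CDK9*-2 and *CDK6*-1 had a mean LFC under that of the lowest AAVS1 sgRNA. The puromycin resistance gene, carried by the editor construct, had a median of −0.06 over 4 sgRNAs and ran from −0.18 for puro-Gln(108) to 0.07 for puro-Trp(123).

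As a class, the sgRNAs with a gene name had a median LFC a little below 0. Their median LFC was −0.02 in replicate 1, −0.08 in replicate 2 and −0.03 for the mean, against 0.00 for the mean LFC of the non-targeting and of the m6A sgRNAs, and without day 20 replicate 2 it was 0.02. With the 7 AAVS1 and puromycin resistance controls left out, the median was 0.00 in replicate 1, −0.06 in replicate 2 and −0.03 for the mean. Of the 78, 30 were negative in both replicates (38.5%, exact 95% interval 27.7% to 50.2%) and 16 were positive in both (20.5%). The same shares were 24.9% and 27.6% of the non-targeting sgRNAs and 25.6% and 26.5% of the m6A sgRNAs. In 16 of 78 (20.5%) both day 20 values lay under both day 10 values, compared with 10.7% of the non-targeting and 11.5% of the m6A sgRNAs. The opposite order was seen in 9 of 78 (11.5%), 12.2% of the non-targeting and 12.0% of the m6A sgRNAs, and in 12.0% of all sgRNAs.

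Most members were close to 0. Below −0.25 were 9 of 78 mean LFCs (11.5%, exact 95% interval 5.41% to 20.8%), 3.70% of the non-targeting and 4.46% of the m6A sgRNAs. The SD of the class was 0.236, against 0.132 for the non-targeting and 0.145 for the m6A sgRNAs. Without the 4 sgRNAs of *MYC* it was 0.167 and the median −0.03. Across sgRNAs, Pearson's r between the LFCs of replicates 1 and 2 was 0.455 for the 78, 0.173 without *MYC*, 0.021 for the non-targeting and 0.071 for the m6A sgRNAs. These are descriptions across sgRNAs, which share their libraries, and no test of the list was made.

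Most sgRNAs with a large LFC in 1 replicate did not have one in the other, and the classes were not tested against each other here. Of the sgRNAs with a gene name, 6 were below −0.5 in replicate 1, and 2 of these were below it in replicate 2 as well. Of 83 m6A sgRNAs below −0.5 in replicate 1, 4 were so in replicate 2, and of 4 non-targeting sgRNAs none. Picked in replicate 2, the counts below −0.5 in the other replicate were 2 of 4 with a gene name, 0 of 11 non-targeting and 4 of 97 m6A sgRNAs. Upward, 50 m6A sgRNAs were above 0.5 in replicate 1 and 49 in replicate 2, and none in both. The 2 sgRNAs with a gene name were *MYC*-3 and *MYC*-2, so no sgRNA of another gene had an LFC below −0.5 in both replicates.

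Among the m6A sgRNAs, the 2 lowest mean LFCs rested largely on a single library, whereas 4 other m6A sgRNAs were below −0.5 in both replicates. The normalized counts of 2bc21704.1_GAC_2.8 were 12363 and 4722 on day 10 and 2551 and 4027 on day 20, and its LFC was −2.28 and −0.23. Those of 2bc21697_GAC_2.4 were 7397 and 2466 on day 10 and 1870 and 2307 on day 20, with LFCs of −1.98 and −0.10. In both, replicate 1 of day 10 stood far above the other 3 libraries, and on day 0 the values were 7144 and 3666. Without day 10 replicate 1 the LFCs were −0.56 and −0.25. In that library 8 m6A and 1 non-targeting sgRNA exceeded 1.5 times their highest value in the other 3 libraries, at up to 3.00 times. In day 10 replicate 2 and day 20 replicates 1 and 2 the same was seen for 1, 2 and 5 sgRNAs, at up to 1.63 times.

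Upward, 2bc21787_GAC_9.4 had the highest mean LFC of all sgRNAs. Its normalized counts were 577 and 919 on day 10 and 959 and 1240.5 on day 20, the days did not overlap, and the LFC was 0.73 and 0.43 with a mean of 0.58 ± 0.21 (SD, n = 2 replicates). The next was 2bc19238_AAC_1.7, with 544 and 435 on day 10 and 631 and 786 on day 20. Its LFC was 0.21 and 0.85 and the mean 0.53 ± 0.45 (SD, n = 2 replicates), so the days did not overlap but the size differed between the replicates. The limma adjusted p of both was 0.9998.

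The non-targeting sgRNAs reached sizes close to those. NT-113 was the lowest, with normalized counts of 841 and 1033 on day 10 and of 623 and 667 on day 20 and LFCs of −0.43 and −0.63. NT-922 was the highest, with 938 and 876 on day 10 and 1123 and 1327 on day 20 and LFCs of 0.26 and 0.60. In both sgRNAs the days did not overlap, and neither matches a site. Means of −0.53 and 0.43 thus bound what the 1000 controls showed in this phase. Of the 78 sgRNAs with a gene name, *MYC*-3 and *MYC*-2 lay below all non-targeting sgRNAs and 1, not reported by name, lay above all of them, and of the 7999 m6A sgRNAs 13 lay below and 12 above. The m6A sgRNAs far outnumber the controls, and a larger group reaches further extremes even with the same spread.

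The m6A sgRNAs showed no group that stood apart. Those with AAC in the ID (2400) had a median of 0.01 and an SD of 0.141, and those with GAC (5599) had 0.00 and 0.146. By the last number of the ID, from 4 to 8, the medians lay between −0.0046 and 0.0052. Of 371 site IDs with 3 or more sgRNAs, 48 had all their mean LFCs below 0 and 42 had all above 0. In 7 site IDs every sgRNA was negative in both replicates and in 7 every sgRNA was positive in both, and 1 site ID had at least 2 sgRNAs below −0.25, while none had 2 above 0.25. The medians of these site IDs ran from −0.34 to 0.23.

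The spread of the LFCs depended on abundance. Among the 20% of sgRNAs with the lowest day 0 values (229 to 1165) the SD of the mean LFC was 0.170 for the non-targeting and 0.179 for the m6A sgRNAs, and among the highest 20% (2203 to 8956) it was 0.107 and 0.121. Read counting alone would give an SD of 0.048 in replicate 1 and 0.049 in replicate 2 for the LFCs of the non-targeting sgRNAs, whereas 0.180 and 0.191 were observed. In this phase *MYC*-3 and *MYC*-2 started from day 10 values of 375 to 541 and were thus scarcer than most of the pool. Of sgRNAs with a mean of 300 to 600 on day 10, a range set after the values were seen, 5 were non-targeting and 83 m6A sgRNAs. The mean LFCs of the former ran from −0.01 to 0.41 and those of the latter from −0.61 to 0.53, so both *MYC* sgRNAs lay below all of these.

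Compared with the phases before and after it, days 10 to 20 had the narrowest LFCs. The SD of the mean LFC of the non-targeting sgRNAs was 0.228 in days 0 to 10, 0.132 in days 10 to 20 and 0.247 in days 20 to 30, and for the m6A sgRNAs it was 0.233, 0.145 and 0.257. Days 0 to 10 rest on 1 library of day 0 that enters both replicates. Within single replicates the SDs of the non-targeting sgRNAs were 0.266 and 0.257 early, 0.180 and 0.191 in days 10 to 20 and 0.314 and 0.310 late. Mean LFCs below −0.5 numbered 164, 19 and 324 in the 3 phases, and those above 0.5 numbered 178, 3 and 156. The sgRNAs with a gene name had SDs of 0.452, 0.236 and 0.501.

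The difference between phases was tested for each sgRNA with limma, and none passed an adjusted p of 0.05. That fit leaves out the replicate number and pools the spread over all days. Fewer sgRNAs had an unadjusted p under 0.05 than that threshold lets through when nothing changes. The absence of calls thus does not show that the phases were alike. Between days 10 to 20 and days 0 to 10 there were 0 calls in either direction (0.0%), with 9 (0.0992%) and 7 (0.0771%) sgRNAs at an unadjusted p under 0.05. Between days 20 to 30 and days 10 to 20 there were 0 calls (0.0%), with 15 (0.165%) and 16 (0.176%) at an unadjusted p under 0.05. puro-Gln(108) was among the latter, with LFCs of −0.06 and −0.29 in days 10 to 20 and of 0.44 and 0.67 in days 20 to 30 (limma unadjusted p of the difference = 0.0148, adjusted p = 0.9999). It was picked for mention after its values were seen.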

How the data were processed

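sgRNA abundance was measured by sequencing PCR amplicons of genomic DNA from the A549 screen. According to the methods, the authors removed flanking sequence with Cutadapt, used MAGeCK to count reads per sgRNA and scaled them by the total of mapped reads. The submitters' processing notes also name CASAVA 1.4. The values the authors deposited are treated as a signal per sgRNA (normalized counts), each a whole number of reads, within 0.05 reads, times a factor of the library. Binomial intervals cover counting error only, and amplified reads that carry no molecular identifier are not independent molecules.

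LFCs were computed after a pseudocount of 1, over all sgRNAs with no filter. limma 3.58.1 in R 4.3.3 (lmFit, eBayes with a trend, two-sided) was fitted over all 7 A549 libraries of days 0, 10, 20 and 30 with day as a factor and without a block, and p-values were adjusted by Benjamini-Hochberg over all sgRNAs. The script was tested on simulated data. Neither labels nor methods tell whether a replicate number marks 1 culture over time, so p-values measure only the spread between these samples, which may be technical. Other steps used Python 3.11.15, pandas 2.3.3, numpy 2.4.6 and scipy 1.17.1. Gene positions are those of GENCODE on GRCh37, which the design of the m6A sgRNAs also used. The position of each sgRNA within its gene and its sequence were not analysed here, and the table of the H1 screen was not used.

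The classes, gene lists and naming rule were chosen with earlier results of these data known. Named were all *MYC* sgRNAs, those with a gene name past a non-targeting limit in both replicates, the 5 lowest and 5 highest of the rest with the same sign in both, the lowest and highest sgRNA of each gene, and the 2 lowest and 2 highest m6A and the lowest and highest non-targeting sgRNAs. Results of 10 sgRNAs of 3 genes are counted in the class but not reported by name. Alternatives were another pseudocount, other scalings, a filter on low values, limma without the trend or on 4 libraries, a replicate block, and each library or replicate left out. When a library was left out, the other library of its day was set against both libraries of the other day, which crosses the replicate numbers.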

Additional observations from a re-analysis of the deposited data

How the results depend on the processing

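No sgRNA was called lower or higher on day 20, or as changing at another rate than in a neighbouring phase, under a pseudocount of 10, scaling to an equal total or an equal non-targeting median, a filter at a mean of 200, limma without the trend, or with any library of days 10 and 20 left out. Limma on the 4 libraries of days 10 and 20 alone also gave 0 calls, with 33 sgRNAs lower and 22 higher at an unadjusted p under 0.05. The differences between replicates 1 and 2 correlated across sgRNAs at 0.570 between days 10 and 20, which is a hint from the data that the numbers go together. With a replicate block over 6 libraries there were 0 calls (30 lower and 40 higher at an unadjusted p under 0.05, smallest adjusted p = 0.712). With a replicate block and only the 4 libraries, chosen after seeing the data, limma called 5 sgRNAs lower and 1 higher, with 1 residual degree of freedom. The 5 were m6A sgRNAs whose LFC in the other replicate was within 0.3 of 0, among them 2bc21704.1_GAC_2.8 (−1.25, adjusted p = 1.34e-51) and 2bc21697_GAC_2.4 (−1.04, adjusted p = 1.13e-22), and the cause was not tested. In that fit the adjusted p of *MYC*-3 was 0.217. Leaving out a library or a replicate, the mean LFCs below −1 numbered 1 to 6 and those above 1 numbered 0 to 2. The sgRNAs with a gene name below the non-targeting limit numbered 1 to 7, and those above it 0 to 3, where with 1 replicate left out the limit is that of the other alone. The median LFC ran from −0.085 to 0.016 for the sgRNAs with a gene name, from −0.0054 to 0.022 for non-targeting and from −0.0055 to 0.0046 for m6A sgRNAs, whose median was −0.0042 when scaled to an equal total. Settings that alter only the filter or the limma fit leave an LFC as it is, so they could not change its direction. With 1 library left out, 1 of the 2 LFCs crossed the replicate numbers, so its sign can differ from that of both LFCs within a number. Of 16 named sgRNAs 12 kept their direction in all 12 settings. Those that did not were *MYC*-1 (−1.02 to 0.24 with 1 library left out, above 0 without day 20 replicate 2), *BAP1*-3 (−0.57 to 0.023, above 0 without day 20 replicate 2), *MYC*-4 (−0.16 to 0.16, with 0.014 without day 10 replicate 2 and 0.16 without day 20 replicate 1) and *BRCA1*-5 (−0.12 to 0.46, with −0.036 without day 10 replicate 1 and −0.12 without day 20 replicate 2). *MYC*-3 ran from −1.64 to −1.08 and *CDK9*-4 from −0.52 to −0.34. Although each value was a whole number of reads times a factor of its library, the count test planned for such reads was not run, and what it would give is unknown. With 2 libraries a day, the number of libraries and not the read depth limits the precision.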
